A study of Rattus norvegicus with 15 samples.

Results

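The core circadian clock genes Per1, Per2, Per3, Cry1, Cry2, Nr1d1, Nr1d2, Dbp, Arntl and Bhlhe40 were followed in irradiated rat brain microvascular endothelial cells (BMECs). These 10 genes were chosen by gene name, with earlier results of these data known. They are 10 of the 37367 genes in the deposited transcript table, and all 10 were among the 17895 genes with a mean level of at least 0.5 FPKM that were tested. The level of a gene is the sum, in each library, of its named transcripts and of the unnamed assembled transcripts at its locus. Unnamed transcripts at a locus with several gene names were not assigned to any gene. The level is in FPKM, fragments scaled by transcript length and library size, and so can be compared between genes. The 10 genes took up 104 transcript rows, 21 named and 83 unnamed. The primary cells came from the cerebral cortex of littermate rats (the labels write Spraque-Dawley) aged 2 to 3 weeks, of both sexes, were enriched by differential adhesion and grew in serum-containing medium that was changed every 3 days. There were 5 groups of 3 libraries. Control cells, handled alike but not irradiated, carry a 12 h culture label, while the other groups received x-rays of 5 Gy or 20 Gy at 60% confluence and were collected after 12 h or 24 h (the 5 Gy 12 h, 20 Gy 12 h, 5 Gy 24 h and 20 Gy 24 h groups).

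In the mammalian clock, the protein of Arntl (also called BMAL1) pairs with CLOCK and switches on genes that carry an E-box, among them the Period and Cryptochrome genes, Nr1d1, Nr1d2, Dbp and Bhlhe40. The Period and Cryptochrome proteins return to the nucleus and block that pair, while the nuclear receptors REV-ERBα (Nr1d1) and REV-ERBβ (Nr1d2) repress Arntl through ROR elements. The cycle runs in nearly every cell of the body, including vascular endothelium, and in culture it is reset by serum, temperature and glucocorticoids, so a single time point samples one phase of it.

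Sequence upstream of the start site was taken for 9 of the 10 genes from RefSeq promoter windows on the GRCr8 assembly, and it was searched on both strands for the E-box CACGTG, the E-box variant CACGTT, the D-box (TTATGTAA or TTACGTAA, bound by DBP and its relatives), the ROR element core AGGTCA and the cAMP response element TGACGTCA. Over the 250 bases before the start site, the E-box was found in 5.59% of 33469 rat promoters, its variant in 4.07%, the D-box in 0.932%, the ROR core in 14.1% and the cAMP response element in 1.59%. The windows of 6 of the 9 genes held a match, and no matches overlapped each other. Below, the windows of Arntl, Per2, Nr1d1 and Bhlhe40 are shown as 1 gene from each arm of the loop, with the match in capitals. Arntl carries the ROR core 15 bases before the start site (chr1:176766078-176766327, plus strand). Per2 carries a D-box at 192 and the E-box variant at 62 bases before it (chr9:99496994-99497243, minus strand). The E-box lies 191 bases before a start site of Nr1d1 (chr10:84229455-84229704, minus strand) and 220 bases before that of Bhlhe40 (chr4:143174200-143174449, plus strand).
Arntl: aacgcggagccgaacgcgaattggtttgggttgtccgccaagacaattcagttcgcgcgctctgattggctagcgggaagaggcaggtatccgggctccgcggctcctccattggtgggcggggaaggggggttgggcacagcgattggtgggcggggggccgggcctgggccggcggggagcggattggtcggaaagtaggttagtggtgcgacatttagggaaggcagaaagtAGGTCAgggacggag
Per2: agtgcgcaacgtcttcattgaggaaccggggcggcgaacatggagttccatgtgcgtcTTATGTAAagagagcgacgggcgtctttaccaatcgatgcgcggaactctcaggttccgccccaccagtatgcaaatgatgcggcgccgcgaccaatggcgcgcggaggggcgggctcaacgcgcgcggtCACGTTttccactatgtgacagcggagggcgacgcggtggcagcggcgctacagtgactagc
Nr1d1: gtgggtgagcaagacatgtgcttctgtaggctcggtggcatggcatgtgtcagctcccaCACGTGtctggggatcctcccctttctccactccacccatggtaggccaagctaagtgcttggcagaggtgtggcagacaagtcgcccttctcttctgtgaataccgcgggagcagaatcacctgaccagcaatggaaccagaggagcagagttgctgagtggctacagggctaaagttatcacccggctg
Bhlhe40: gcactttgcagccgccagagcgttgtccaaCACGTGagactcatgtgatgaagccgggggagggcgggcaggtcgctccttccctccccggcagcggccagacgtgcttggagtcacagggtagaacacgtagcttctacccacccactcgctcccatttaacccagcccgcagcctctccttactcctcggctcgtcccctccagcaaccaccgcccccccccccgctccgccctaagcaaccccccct
Cry2 and the other Nr1d1 window held the E-box variant on the opposite strand (AACGTG), at 212 and 174 bases, and Nr1d2 held the ROR core at 187 bases. None of these letters stood in the windows of Per1, Per3 or Dbp. A match is a run of letters in this window, and these RNA data do not show which sites are bound.

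The limma p-values below rest on the spread between the 3 libraries within a group, pooled over the 5 groups, all from cells of littermates. The libraries held 16730340 to 22991352 read equivalents, a depth read from the low FPKM values, and each clock gene had 315 to 13395 of them in every library. All 8 p53 target genes tested rose in each irradiated group against Control. Among all genes, the share called higher ran from 4.90% (20 Gy 12 h) to 20.5% (5 Gy 24 h). The p53 list was chosen with earlier results of these data known. The paper had already reported Fas, Gdf15 and Plk2 from this list as changed in every irradiated group. For those genes the rise is therefore no independent check of the exposure. The endothelial label found little in the RNA: of 9 endothelial markers measured, 8 were below 1 FPKM in every library, Tie1 and Emcn were listed at 0 in all of them, and the summed level was 2.02 to 6.15 FPKM. Hspa8, a chaperone that nearly every cell makes, was listed at 0 as well, so a listed 0 need not mean absent RNA. The 5 fibroblast markers summed to 1356 to 1426 FPKM in Control, 803 to 1057 FPKM at 12 h and 241 to 293 FPKM at 24 h, and 7 pericyte and smooth muscle markers to 55.7 to 63.9, 43.0 to 48.3 and 15.9 to 27.6 FPKM. Of the 5 fibroblast markers, 2 were called lower than Control at 12 h and 4 at 24 h, at each dose. Pdgfra held 43.8 to 66.8 FPKM over all libraries. Of the 7 pericyte and smooth muscle markers, 4 were below 1 FPKM in every library. Only 3 were tested, with none called at 12 h and 2 lower at 24 h at each dose. The part of these cells in the clock gene levels was not tested, and in bulk RNA fewer cells of a type and less RNA per cell cannot be told apart. No unexposed 24 h culture was analysed here, so at 24 h the time after exposure and the time in culture cannot be told apart. The hour of collection and of the last medium change is not given in the sources used here.

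**Figure D1:**
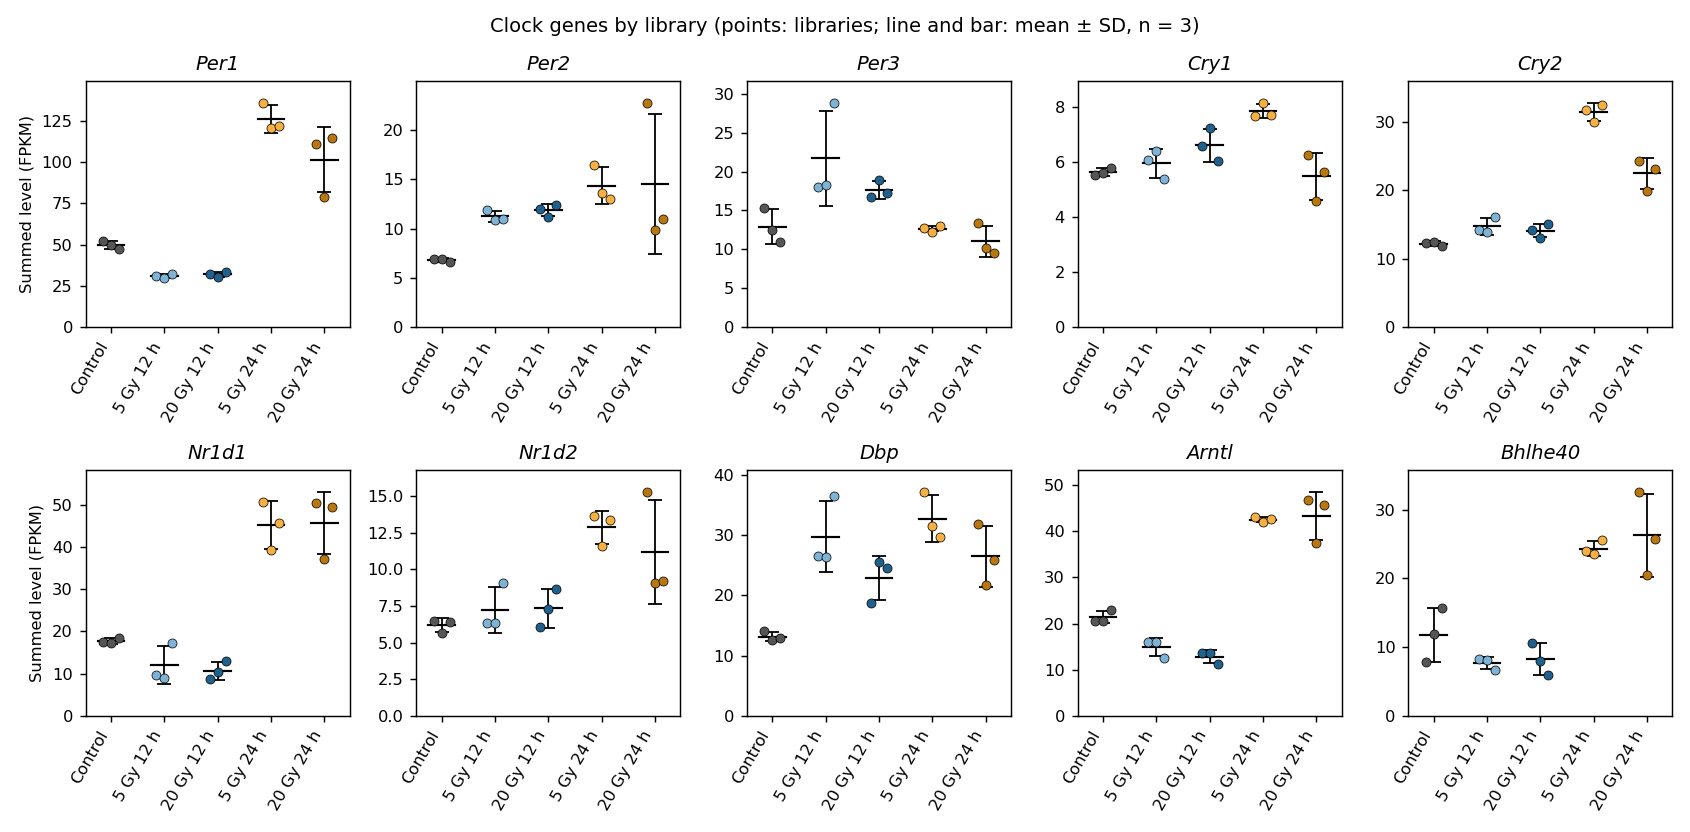
Level of each clock gene (y axis, FPKM, from 0) in the 15 libraries by group (x axis). Points are libraries, the line is the group mean and the bar the SD (n = 3); Per1, Cry2, Nr1d1, Arntl and Bhlhe40 lie higher in all 24 h libraries than in all 12 h libraries, while Per3 lies lower at 24 h than at 12 h.

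The first question was how clock gene expression differed between 12 h and 24 h after the same dose. From 12 h to 24 h after 5 Gy, 6 of the 10 genes rose (Per1, Cry2, Nr1d1, Nr1d2, Arntl and Bhlhe40) and Per3 fell. After 20 Gy, 5 rose (Per1, Cry2, Nr1d1, Arntl and Bhlhe40) and Per3 again fell. The transcriptome as a whole also moved: after 5 Gy 36.4% of the 17895 genes were called (17.1% higher and 19.3% lower), and after 20 Gy 36.3% (14.1% higher and 22.1% lower). A call needed an adjusted p below 0.05 in limma and a fold change of at least 1.5 on log2(FPKM + 1). The median log2 fold change of the 10 genes was 0.91 after 5 Gy and 0.58 after 20 Gy, beside -0.08 and -0.15 over all genes tested. The fold changes understate the change of low genes, since 1 was added to each level. With 3 libraries against 3, the smallest two-sided exact permutation p is 0.1, which every pair of groups without overlap reaches.

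Arntl, the positive arm of the loop and located on chromosome 1 (178039063-178137465, plus strand, in Rnor_6.0 as are all gene positions that follow), was lowest at 12 h and highest at 24 h. It measured 20.6, 20.5 and 22.9 FPKM in the Control libraries. At 12 h it measured 16.0, 16.1 and 12.5 FPKM after 5 Gy and 13.7, 13.6 and 11.2 FPKM after 20 Gy. At 24 h it measured 43.1, 42.0 and 42.7 FPKM after 5 Gy and 46.9, 37.4 and 45.8 FPKM after 20 Gy. Every 24 h library lay above every Control library and every Control library above every 12 h library, with the doses overlapping at 24 h. The log2 fold change from 12 h to 24 h was 1.46 ± 0.11 (SE) after 5 Gy (limma adjusted p = 3.99e-07) and 1.68 ± 0.11 after 20 Gy (limma adjusted p = 1.3e-07). The order held for the sum, whereas the transcript of Arntl with the highest mean was called above Control 12 h after 5 Gy (1.201, limma adjusted p = 0.00723).

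Per1, a repressor of the loop and also an early response gene of serum and glucocorticoids (chromosome 10, 55687050-55695994, plus strand), had the highest mean of the 10 genes in every group, although Dbp overlapped it 12 h after 5 Gy. The 3 Control libraries measured 51.9, 49.8 and 47.6 FPKM. The level was 30.7, 29.4 and 32.0 FPKM 12 h after 5 Gy and 31.9, 30.5 and 33.5 FPKM 12 h after 20 Gy. At 24 h it was 136, 121 and 122 FPKM after 5 Gy and 111, 78.9 and 115 FPKM after 20 Gy. The order was 12 h, Control, 24 h, without overlap, and the doses overlapped at 12 h but not at 24 h. Per1 rose from 12 h to 24 h by 2.00 ± 0.12 on the log2 scale after 5 Gy (limma adjusted p = 3.75e-08) and by 1.62 ± 0.12 after 20 Gy (limma adjusted p = 2.22e-07).

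Per3, the member of the Period family that the loop can run without (chromosome 5, 168086998-168123395, minus strand), fell between the times. Its levels were 15.4, 12.4 and 11.0 FPKM in Control, 18.0, 18.3 and 28.8 FPKM 12 h after 5 Gy and 16.7, 19.0 and 17.2 FPKM 12 h after 20 Gy. At 24 h they were 12.7, 12.3 and 13.01 FPKM after 5 Gy and 13.3, 10.2 and 9.54 FPKM after 20 Gy, within or close to the Control range. The 12 h libraries all lay above the 24 h and Control libraries. The log2 change from 12 h to 24 h was -0.70 ± 0.17 after 5 Gy (limma adjusted p = 0.00391) and -0.65 ± 0.17 after 20 Gy (limma adjusted p = 0.00656). Without the third 5 Gy 12 h library, the highest, the first was -0.49 and below the fold limit, and without the third 20 Gy 24 h library the second was -0.56, below it as well. The leading single transcript of Per3, MSTRG.19237.13, went the other way, by 1.85 and 1.58 (limma adjusted p = 0.103 and 0.161).

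Per2, a core repressor (chromosome 9, 98555169-98597359, minus strand), was called above Control in both 24 h groups and 12 h after 20 Gy, with no change called from 12 h to 24 h. Control libraries measured 6.89, 6.89 and 6.56 FPKM. At 12 h the level was 11.9, 10.9 and 11.0 FPKM after 5 Gy and 12.0, 11.2 and 12.4 FPKM after 20 Gy. At 24 h it was 16.5, 13.6 and 13.01 FPKM after 5 Gy and 22.7, 9.88 and 11.0 FPKM after 20 Gy. All 12 irradiated libraries lay above Control, and the first 20 Gy 24 h library stood well above the rest. From 12 h to 24 h the log2 difference was 0.32 (95% interval -0.15 to 0.79) after 5 Gy and 0.18 (-0.29 to 0.65) after 20 Gy.

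Of the cryptochromes, the partners of the Period proteins, Cry2 rose at 24 h and Cry1 was not called. Cry2 (chromosome 3, 81314149-81344110, minus strand) measured 12.3, 12.5 and 11.9 FPKM in Control, 14.1, 13.9 and 16.1 FPKM 12 h after 5 Gy and 14.2, 13.04 and 15.01 FPKM 12 h after 20 Gy. The 24 h libraries held 31.7, 30.0 and 32.5 FPKM after 5 Gy and 24.3, 20.0 and 23.1 FPKM after 20 Gy, so the doses did not overlap at 24 h. Its log2 fold change from 12 h to 24 h was 1.05 ± 0.09 after 5 Gy (limma adjusted p = 6.82e-07) and 0.63 ± 0.09 after 20 Gy (limma adjusted p = 4.95e-05). The latter was 0.58 and just below the fold limit without the second 20 Gy 12 h library or without the first 20 Gy 24 h library. The rise rested on unnamed rows: the annotated transcript ENSRNOT00000010142, the highest of the gene, differed by -0.32 after 5 Gy (limma adjusted p = 0.604) and by 0.0075 after 20 Gy (limma adjusted p = 0.991). Of the 45 rows summed for Cry2, 8 reached past the gene as far as position 81219708. They carried up to 9.62 FPKM in a library, the third 20 Gy 24 h one. In the first and second 20 Gy 24 h libraries, MSTRG.15197.3 and MSTRG.15197.1 of these rows held 5.31 and 5.56 FPKM. At 12 h after 20 Gy only the first library held any, 4.26 FPKM in MSTRG.15197.4. The rise after 20 Gy without these rows was not tested.

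Cry1 (chromosome 7, 24534615-24634097, plus strand) had group means from 5.49 ± 0.854 FPKM (SD, n = 3) 24 h after 20 Gy to 7.84 ± 0.255 FPKM 24 h after 5 Gy and 5.64 ± 0.131 FPKM in Control. From 12 h to 24 h it differed by 0.35 ± 0.10 on the log2 scale after 5 Gy (limma adjusted p = 0.0127), under the fold limit, and by -0.24 ± 0.10 after 20 Gy (limma adjusted p = 0.0711). Its whole range over libraries was 4.57 to 8.14 FPKM. The annotated transcript alone fell after 20 Gy, by 0.96 from 12 h to 24 h (limma adjusted p = 0.0107) and by 0.76 at 24 h against Control (limma adjusted p = 0.0316).

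Of the REV-ERB genes, Nr1d1 rose between the times whichever the dose, after 20 Gy more than any other of the 10 genes, and Nr1d2 rose after 5 Gy. Nr1d1 (chromosome 10, 86683875-86690815, minus strand) measured 17.5, 17.3 and 18.5 FPKM in Control, 9.69, 9.01 and 17.3 FPKM 12 h after 5 Gy and 8.61, 10.4 and 12.96 FPKM 12 h after 20 Gy. The 24 h levels were 50.7, 39.3 and 45.7 FPKM after 5 Gy and 50.5, 37.3 and 49.5 FPKM after 20 Gy. Every 24 h library was above every Control library and every 12 h library below, although the third 5 Gy 12 h library reached nearly the Control level. In that library 9.72 FPKM of the sum came from the transcript ENSRNOT00000055333, which was below 0.1 FPKM in the other 14. The log2 fold change from 12 h to 24 h was 1.88 ± 0.21 after 5 Gy (limma adjusted p = 8.84e-06) and 2.01 ± 0.21 after 20 Gy (limma adjusted p = 5.23e-06). By named rows alone the rise after 5 Gy was 0.87 and not called (limma adjusted p = 0.148). The last 1059 bases of Nr1d1 overlap Thra on the other strand, the use of strand in counting is not given in the sources used here, and Thra itself was not called in any comparison (log2 differences of -0.42 to 0.09).

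Nr1d2 (chromosome 15, 8730871-8757165, plus strand) measured 6.48, 5.63 and 6.41 FPKM in Control, 6.37, 6.32 and 9.05 FPKM 12 h after 5 Gy and 6.04, 7.27 and 8.68 FPKM 12 h after 20 Gy. Later, at 24 h, it was 13.7, 11.6 and 13.4 FPKM after 5 Gy and 15.3, 9.05 and 9.17 FPKM after 20 Gy. Control and 12 h libraries overlapped, and at each dose the 24 h libraries lay above the 12 h libraries, by a narrow margin after 20 Gy. It rose by 0.76 ± 0.19 on the log2 scale after 5 Gy (limma adjusted p = 0.00401), while after 20 Gy the difference was 0.52 ± 0.19 (limma adjusted p = 0.0326) and under the fold limit.

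Dbp, a transcription factor and clock output that binds D-boxes (chromosome 1, 101687855-101692846, plus strand), was above Control from 12 h on. It measured 14.0, 12.6 and 12.8 FPKM in Control, 26.5, 26.3 and 36.5 FPKM 12 h after 5 Gy and 18.7, 25.5 and 24.6 FPKM 12 h after 20 Gy. The levels at 24 h were 37.2, 31.5 and 29.6 FPKM after 5 Gy and 31.8, 21.7 and 25.9 FPKM after 20 Gy. The 12 h and 24 h libraries overlapped at both doses, with log2 differences of 0.14 (95% interval -0.21 to 0.50) and 0.20 (-0.16 to 0.55). Its transcripts differed in direction. The annotated ENSRNOT00000091597 held 3.47 to 7.29 FPKM in the 12 h libraries and 7.83 to 20.2 FPKM in the 24 h libraries. The leading transcript, ENSRNOT00000028546, differed by -0.61 after 5 Gy (limma adjusted p = 0.128) and by -0.37 after 20 Gy (limma adjusted p = 0.356). Against Control that transcript was higher by 0.97 12 h after 20 Gy (limma adjusted p = 0.0638). It was higher by 0.73 24 h after 5 Gy (limma adjusted p = 0.0656) and by 0.60 24 h after 20 Gy (limma adjusted p = 0.125), all without a call.

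Bhlhe40, a repressor that competes for E-boxes and also responds to serum and low oxygen (chromosome 4, 140703619-140709319, plus strand), varied most among the Control libraries, at 7.79, 11.9 and 15.7 FPKM. At 12 h it was 8.26, 8.06 and 6.65 FPKM after 5 Gy and 10.6, 8.01 and 5.98 FPKM after 20 Gy, overlapping Control. At 24 h it was 24.0, 23.5 and 25.5 FPKM after 5 Gy and 32.6, 20.5 and 25.7 FPKM after 20 Gy, above all other libraries. The rise from 12 h was 1.55 ± 0.23 on the log2 scale after 5 Gy (limma adjusted p = 9.8e-05) and 1.57 ± 0.23 after 20 Gy (limma adjusted p = 9.27e-05).

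**Figure D2:**
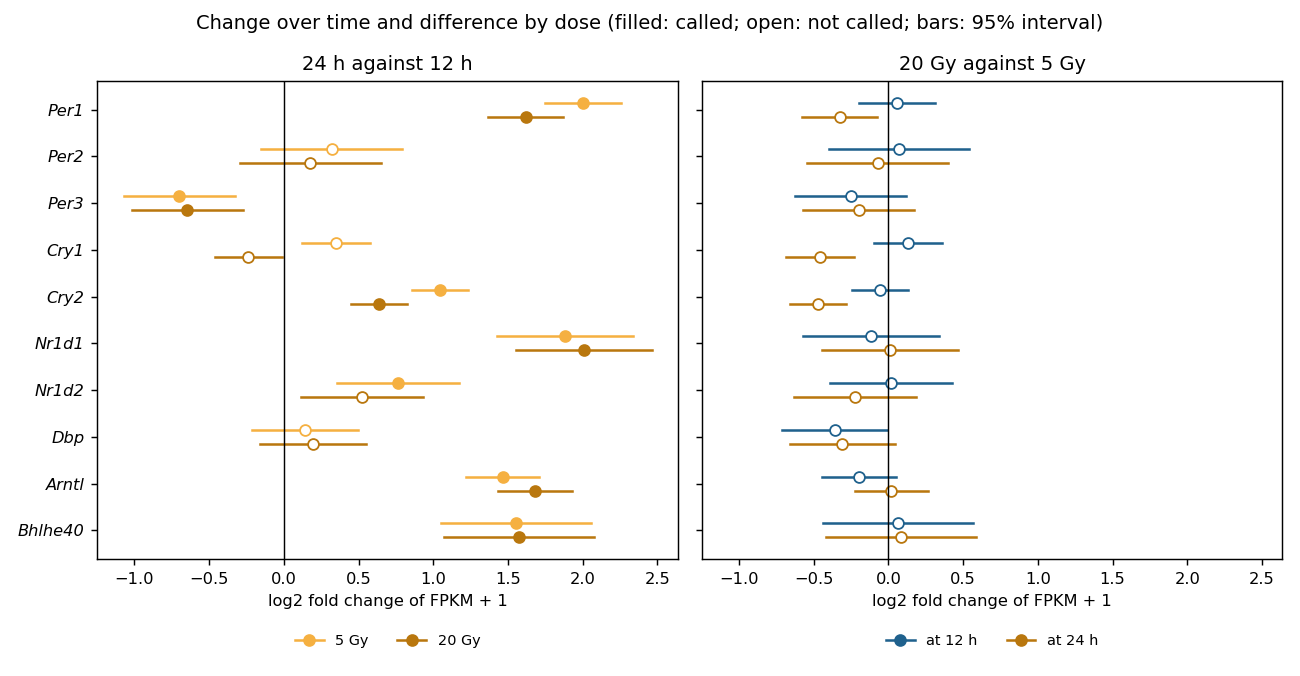
Log2 fold change of FPKM + 1 (x axis) of each clock gene (y axis) from 12 h to 24 h at each dose, and between the doses at each time. Points are estimates and bars 95% intervals, filled where called; the called rises from 12 h to 24 h lie between 0.63 and 2.01, and no difference between the doses was called.

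Whether the dose changed these levels was tested at each time. At 12 h, none of the 10 genes was called between 20 Gy and 5 Gy (0.123% of all genes were), 1 had an unadjusted p below 0.05 (Dbp), and the 95% intervals of the log2 differences ran from -0.71 to 0.57 over the 10 genes. At 24 h, again none was called (2.42% of all genes were), and 3 had an unadjusted p below 0.05 (Cry1, Cry2 and Per1), all lower after 20 Gy. Cry1 differed by -0.46 ± 0.10 (limma adjusted p = 0.028) and Cry2 by -0.47 ± 0.09 (limma adjusted p = 0.0099), both under the fold limit and without overlap of the libraries. The change from 12 h to 24 h was compared between the doses by an interaction term, for which none of the 10 genes passed (0.553% of all genes did) and the same 3 genes had an unadjusted p below 0.05. The nearest was Cry1, whose change was lower after 20 Gy by 0.59 on the log2 scale (95% interval -0.91 to -0.27, limma adjusted p = 0.11).

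Against Control, the 12 h groups held both higher and lower clock genes. After 5 Gy, Dbp and Per3 rose and Per1 fell, 3 of 10 genes beside 9.94% of all genes (4.98% higher and 4.96% lower). After 20 Gy, Dbp and Per2 rose and Per1, Nr1d1 and Arntl fell, 5 of 10 genes beside 8.54% of all genes (4.90% higher and 3.64% lower). Dbp was higher by 1.11 ± 0.16 on the log2 scale after 5 Gy (limma adjusted p = 0.00051) and by 0.75 ± 0.16 after 20 Gy (limma adjusted p = 0.00765). Per1 differed by -0.68 ± 0.12 (limma adjusted p = 0.00147) and -0.62 ± 0.12 (limma adjusted p = 0.00312). The 20 Gy call of Per1 was lost with levels rescaled to the same sum (TPM, -0.58) and under quantile normalization (-0.54), both under the fold limit. Arntl differed by -0.70 ± 0.11 after 20 Gy (limma adjusted p = 0.00129) and by -0.50 ± 0.11 after 5 Gy (limma adjusted p = 0.00852), the latter under the fold limit. Per2 differed by 0.73 ± 0.22 after 20 Gy (limma adjusted p = 0.0377) and by 0.66 ± 0.22 after 5 Gy (limma adjusted p = 0.0527), and Nr1d1 by -0.70 ± 0.21 (limma adjusted p = 0.0377) and -0.59 ± 0.21 (limma adjusted p = 0.0706). Per3 differed by 0.68 ± 0.17 after 5 Gy (limma adjusted p = 0.0148), a call lost without the third 5 Gy 12 h library (0.47), without the third Control library (0.58) or with only both groups in the fit (limma adjusted p = 0.0819). The 20 Gy calls of Per2 and Nr1d1 were also lost, that of Per2 without any 1 of the 6 libraries and that of Nr1d1 without any 1 of 5 of them, and by named rows alone Nr1d1 lay above Control (1.41 after 5 Gy and 0.72 after 20 Gy, neither called).

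At 24 h, 8 of the 10 genes were above Control at each dose, namely Per1, Per2, Cry2, Nr1d1, Nr1d2, Dbp, Arntl and Bhlhe40, and none was below it. Among all genes, 41.3% were called 24 h after 5 Gy (20.5% higher and 20.8% lower) and 40.3% after 20 Gy (17.0% higher and 23.3% lower). The median log2 fold change of the 10 genes was 1.01 after 5 Gy and 0.92 after 20 Gy, beside -0.05 and -0.14 over all genes. After 5 Gy the rises ran from 0.95 for Nr1d2 to 1.32 for Per1, and after 20 Gy from 0.73 for Nr1d2 to 1.31 for Nr1d1. Per3 differed from Control by -0.02 (95% interval -0.39 to 0.36) and -0.22 (-0.59 to 0.16), and Cry1 by 0.41 ± 0.10 after 5 Gy (limma adjusted p = 0.00418), under the fold limit, and by -0.04 (-0.27 to 0.18) after 20 Gy. The 4 comparisons share the Control libraries. By the transcript with the highest mean alone, Per2, Cry2 and Dbp were not called at either dose (Cry2 at 0.031 and 0.36). Neither was Nr1d1 after 5 Gy (0.93, limma adjusted p = 0.228) or Nr1d2 after 20 Gy (0.45, limma adjusted p = 0.134). By that transcript Per3 was called higher after 5 Gy and 20 Gy (2.99 and 2.24), and Cry1 lower after 20 Gy (-0.76).

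**Figure D3:**
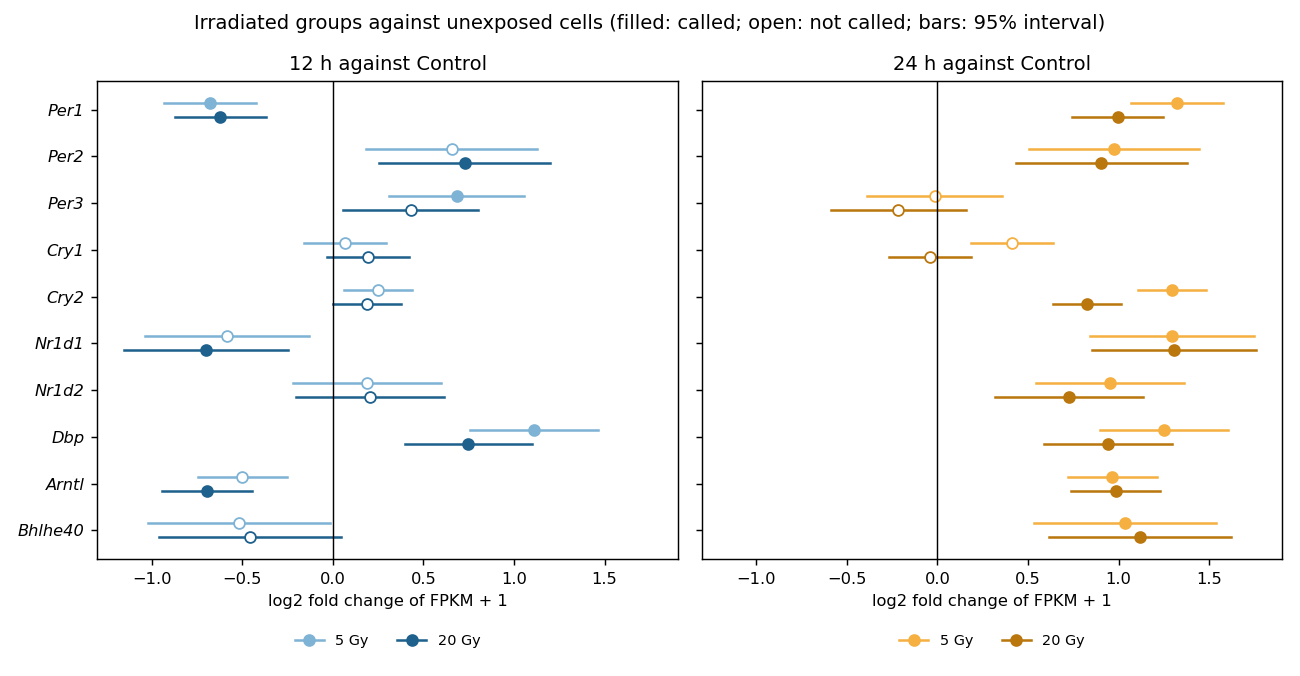
Log2 fold change of FPKM + 1 (x axis) of each clock gene (y axis) in the irradiated groups against Control, at 12 h on the left and 24 h on the right. Points are estimates and bars 95% intervals, filled where called; at 12 h the called genes lie on both sides of 0, and at 24 h the 8 called genes all lie above it.

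The sums were made of several transcripts whose shares were not stable between replicates. For Per1, the annotated transcript ENSRNOT00000057136 held 2.78% to 4.93% of the sum in Control, 25.7% to 85.1% in the 5 Gy 12 h group and 76.8% to 80.7% in the 20 Gy 12 h group. The unnamed MSTRG.3879.4 carried 46.7 FPKM in the first Control library and 0 in the other two, where the overlapping MSTRG.3879.2 carried 46.9 and 45.4 FPKM. At 24 h the unnamed MSTRG.3879.3 held 36.1% to 73.0% of the sum. By the transcript with the highest mean alone, MSTRG.3879.3, Per1 differed from Control at 12 h by 1.27 after 5 Gy (limma adjusted p = 0.0824) and 2.14 after 20 Gy (limma adjusted p = 0.00812) on the log2 scale. By the named row alone it differed by 2.59 and 3.12, both called and opposite to the sum. The rise of Per1 from 12 h to 24 h was called for MSTRG.3879.3 at both doses, while the annotated transcript alone differed by 0.34 after 5 Gy and -0.39 after 20 Gy, neither called. The annotated transcript of Arntl held at most 10.3% of its sum, and the direction of the 5 Gy 12 h difference also turned for its leading transcript MSTRG.1824.1. That transcript was called higher than Control (1.201 on the log2 scale, limma adjusted p = 0.00723). Bhlhe40 was the gene least divided, with 86.1% to 100.0% of its sum in the annotated transcript, whereas the named share reached as low as 59.9% for Nr1d2 and 25.8% for Cry1 in a library.

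**Figure D4:**
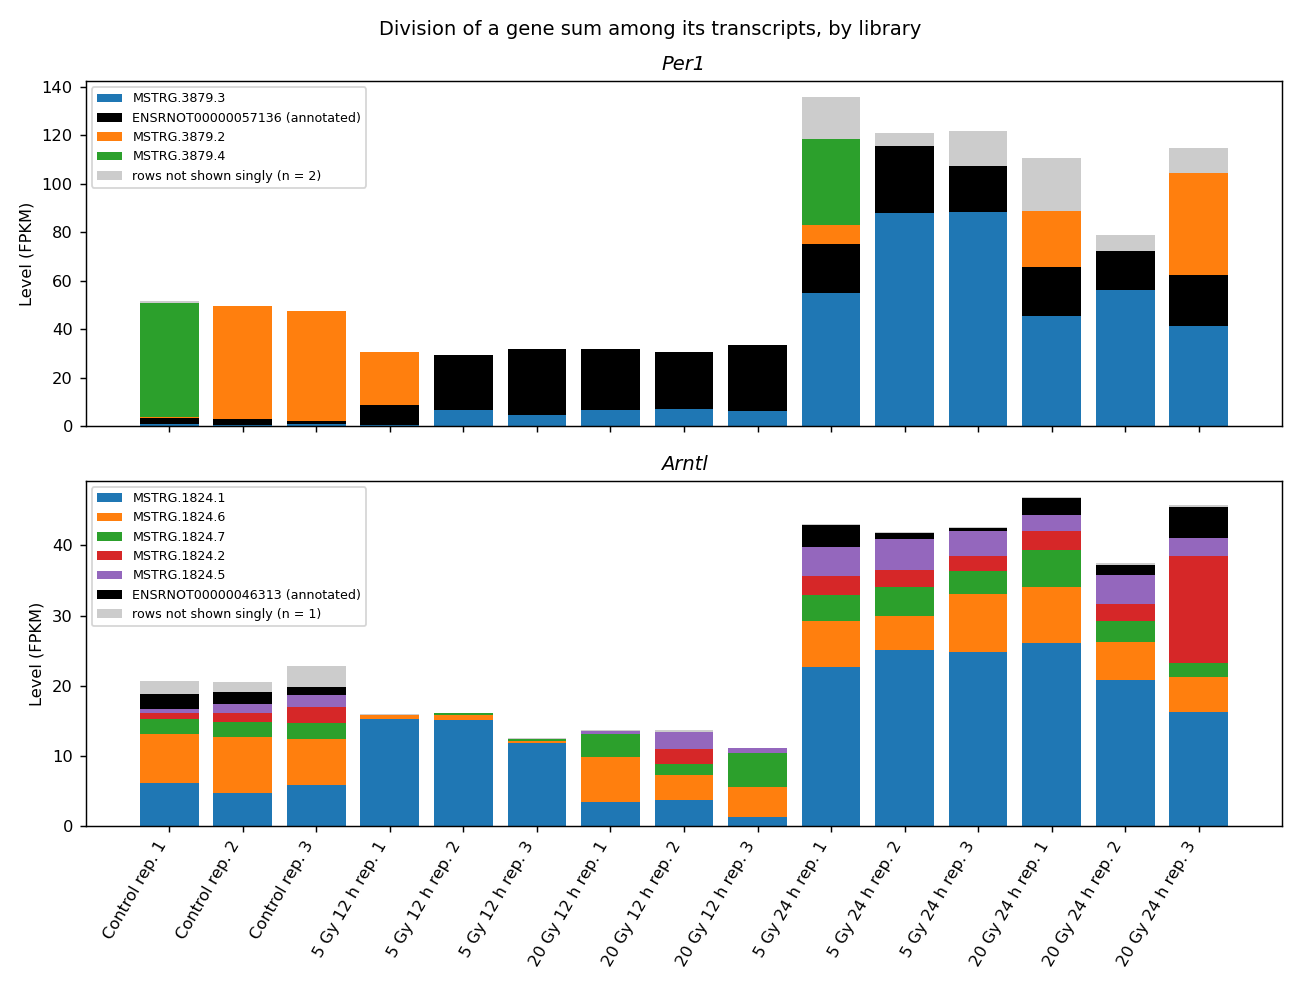
Level (y axis, FPKM, from 0) of the transcripts of Per1 and Arntl stacked in each of the 15 libraries (x axis). Black marks the annotated transcript, colours the leading unnamed ones and grey the rest; the height of a bar is the sum. Replicates of Control show similar heights of Per1 made of different colours, and the second 20 Gy 24 h library has the lowest bar of its group for both genes.

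A further 24 genes of the clock and its outputs were listed by function, of which 23 were tested. From 12 h to 24 h, 11 of the 23 were called after 5 Gy (10 higher, 1 lower) and 10 after 20 Gy (9 higher, 1 lower), beside 36.4% and 36.3% of all genes, and 10 were called at both doses. Clock, the partner of Arntl, rose by 1.18 ± 0.21 after 5 Gy and 1.81 ± 0.21 after 20 Gy on the log2 scale. Rora and Rorb, the receptors that activate Arntl against the REV-ERBs, rose by 2.33 ± 0.16 and 1.49 ± 0.13 after 5 Gy and by 2.35 ± 0.16 and 1.65 ± 0.13 after 20 Gy. Nfil3, the repressor that binds the D-box in place of DBP, rose by 2.64 ± 0.28 and 2.20 ± 0.28, and Bhlhe41, the paralog of Bhlhe40, by 1.92 ± 0.14 and 1.37 ± 0.14. Noct, a rhythmic phosphatase of the output, was the most changed of the list: its mean level went from 0.307 ± 0.0733 FPKM (SD, n = 3) 12 h after 5 Gy to 25.4 ± 3.27 FPKM at 24 h, and from 0.474 ± 0.156 to 17.0 ± 1.74 FPKM after 20 Gy.

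Among the modifiers, Usp2, a deubiquitinase that acts on clock proteins, rose by 2.33 ± 0.27 and 2.19 ± 0.27 on the log2 scale, and Csnk1e, a kinase that marks Period proteins for decay, by 0.79 ± 0.23 and 0.63 ± 0.23. Nampt, the output that makes an NAD precursor, rose by 0.77 ± 0.16 at both doses. Tsc22d3, a glucocorticoid target also known as GILZ, fell by 0.86 after 5 Gy and by 0.63 after 20 Gy. Against Control, 5 of the 23 were called 12 h after 5 Gy (3 higher, 2 lower) and 3 after 20 Gy (1 higher, 2 lower), beside 9.94% and 8.54% of all genes. At 24 h, 13 were called after each dose (11 higher, 2 lower), beside 41.3% and 40.3%. None was called between the doses at 12 h, at 24 h or for the change over time, with 2, 7 and 4 of the 23 at an unadjusted p below 0.05. The mean level of Ciart, listed among the repressors, was 7.89 FPKM in Control. It was 2.45 and 2.06 FPKM at 12 h and 3.72 and 2.37 FPKM at 24 h, after 5 Gy and 20 Gy. Npas2, listed with the partners of Arntl, had a mean of 1.37 FPKM in Control. Its means were 0.506 and 0.268 FPKM at 12 h and 1.05 and 0.783 FPKM at 24 h.

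**Figure D5:**
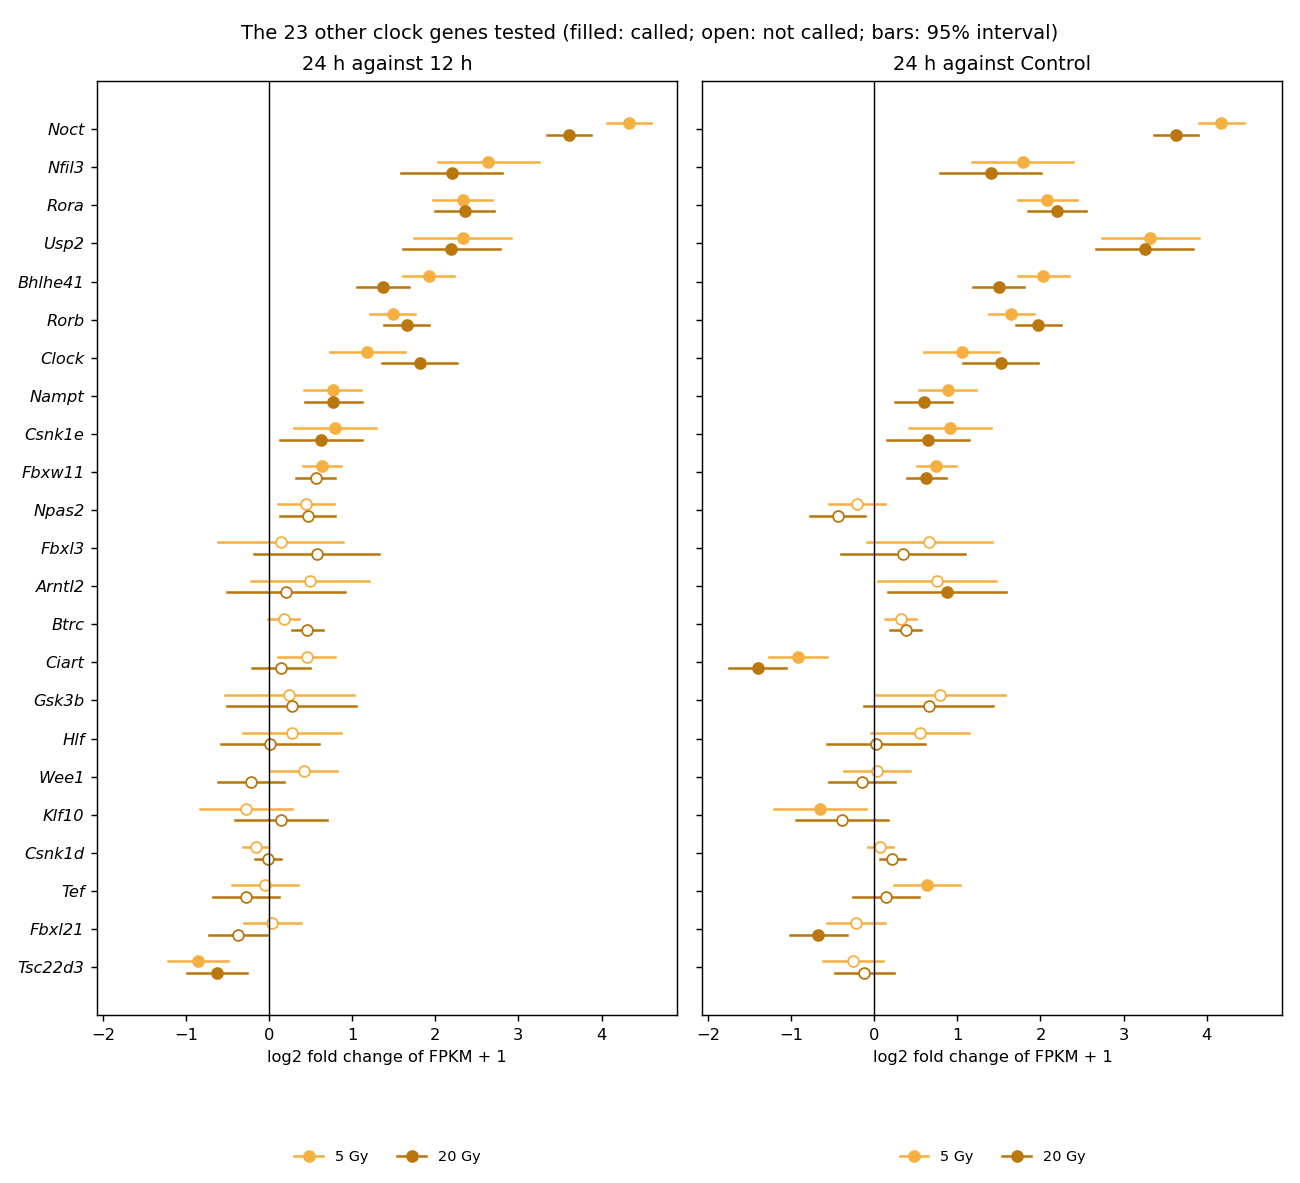
Log2 fold change of FPKM + 1 (x axis) of the 23 other clock genes tested (y axis, ordered by the change from 12 h to 24 h), from 12 h to 24 h on the left and 24 h against Control on the right. Points are estimates and bars 95% intervals, filled where called; Noct lies farthest right at both doses, and Tsc22d3 is the gene called lower at both doses from 12 h to 24 h.

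Other genes moved along with the clock genes, and their part in the clock gene levels was not tested. Of 8 heat shock genes, 7 rose from 12 h to 24 h after 5 Gy and all 8 after 20 Gy, and their summed level was 355 to 418 FPKM in Control, 323 to 361 FPKM at 12 h, 2259 to 3038 FPKM in the 5 Gy 24 h group and 7941 to 9629 FPKM in the 20 Gy 24 h group. Of 8 immediate early genes, 6 fell below Control at 12 h at each dose, and their summed level was 183 to 197 FPKM in Control, 26.1 to 116 FPKM at 12 h and 844 to 1580 FPKM at 24 h. At 24 h, 5 of the 8 were higher than Control and 2 (Egr1 and Egr2) lower at each dose, and Nr4a1 alone reached 993 FPKM in a library. Rbm3, an RNA-binding protein induced by mild cold, was lower than Control in all 4 irradiated groups, by -0.84 to -1.17 on the log2 scale, with no change called from 12 h to 24 h.

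The 2 clock genes with the widest range of group means, Nr1d1 and Per1, were set against 8888 named genes with a mean of at least 5 FPKM. Over the 15 libraries, which fall into groups and share them, the log2 levels of Nr1d1 correlated best with Gmeb2 (Pearson r = 0.985), Wdr43 (0.980) and Zfp496 (0.980). Those of Per1 correlated best with Osgin1 (r = 0.990), Pom121 (0.989) and Tmem131 (0.988). Osgin1 followed Per1 closely, with 12.4 ± 0.211 FPKM (SD, n = 3) in Control, 7.02 ± 0.846 and 8.26 ± 0.733 FPKM at 12 h and 54.3 ± 1.29 and 41.2 ± 8.10 FPKM at 24 h, after 5 Gy and 20 Gy.

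Single libraries were also ranked within their group. The second 20 Gy 24 h library was the lowest of its group for 9 of the 10 genes, and for 31.3% of all genes tested. The third 5 Gy 12 h library was the highest of its group for 6 of the 10, not far from its share of 40.1% over all genes. Without the first 20 Gy 24 h library, which was the highest for Per2 and Nr1d2, these genes differed from Control by 0.55 and 0.50, under the fold limit. Without the second library of both 24 h groups, Nr1d2 was called from 12 h to 24 h after 20 Gy as well, at 0.64.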

How the data were processed

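RNA of 15 libraries was selected for poly-A, made into libraries and read at 150 bases. The deposited table gives, per the file headers, FPKM values of each transcript and library, which the authors made by alignment to Rnor_6.0 with HISAT2 and transcript assembly and quantification with StringTie. The submitters' processing notes also name Trimmomatic, FastQC, kallisto, edgeR and HISAT2 version 2.0.13. Whether reads were paired or stranded is not given in the sources used here, and the study's own counts were not analysed here. No column of the table was left out.

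FPKM values were summed per gene and library over named rows and unnamed rows of the same locus. Unnamed rows in loci with several gene names, 4738 of the 85322 transcripts, were not assigned to a gene and entered no sum. Depth was estimated from the steps between low values, of which 91.7% to 94.0% were whole bases within 0.02. Genes with a mean of at least 0.5 FPKM were tested on log2(FPKM + 1) with limma 3.58.1 (R 4.3.3), 1 mean per group over all 15 libraries (10 residual degrees of freedom), a trended variance and Benjamini-Hochberg adjustment over all genes tested. Genes were called at adjusted p < 0.05 with levels differing 1.5 times or more, or the adjusted p alone for the interaction. The scripts were tested on simulated data. The members and all lists were chosen with earlier results of these data known. All 10 members are named, with the related clock genes called in both comparisons of 24 h with 12 h and the 3 genes (mean of at least 5 FPKM) most alike to the 2 members with the widest range. Ciart and Npas2 were named after seeing the data. Alternatives were a pseudocount of 0.1, a filter of 1 FPKM or none, TPM scaling, quantile normalization, a fit of only the groups compared, other call limits, the leading transcript, a replicate block and leaving out each library.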

Additional observations from a re-analysis of the deposited data

How the results depend on the processing

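Of the values recomputed, 1195 kept their direction and their side of the threshold. Another 50 kept their direction but lost a call, and 20 kept it and gained one. The other 65 changed sign, some of them with a call lost or gained as well. FPKM holds no counts here, so depth limits low transcripts most, and 3 libraries per group cannot reach an exact permutation p below 0.1. The division of reads among transcripts moved the values most, and the cause was not tested. TPM scaling moved the median over all genes tested, in the 5 Gy 24 h group against Control, from -0.05 to 0.06. The replicate numbers showed no sign of pairing in these values: deviations of same-numbered libraries correlated at -0.18 to 0.23 (median 0.0088, 30 pairs) and of others at -0.21 to 0.20 (60 pairs). With the replicate block, 5 members were called 12 h after 5 Gy against Control in place of 3, with Nr1d1 (-0.59) and Per2 (0.66) gained, and its other counts of members stayed within 1.5 times.

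Among the 10 members, a fold limit of 2 left 1 call in the 5 Gy 12 h group against Control, 0 in the 20 Gy 12 h group, 5 in the 5 Gy 24 h group and 2 in the 20 Gy 24 h group. For 12 h after 20 Gy against Control, 3 in place of 5 were called with no filter, with TPM scaling, by the leading transcript and by named rows alone. By the leading transcript the 3 included Per1 above Control (2.14, limma adjusted p = 0.00812), opposite to the sum, and by named rows Per1 was called above Control as well. With TPM scaling the call of Per1 was among those lost (-0.58), as it was under quantile normalization (-0.54). The leading transcript gave 5 calls 24 h after 5 Gy against Control, Per3 among them, and 1 for the interaction. It also gave 1 between doses at 12 h (Arntl, -2.05, limma adjusted p = 0.00689). The adjusted p alone gave 2 between doses at 24 h. Named rows alone, chosen after seeing the data, gave 3 calls from 12 h to 24 h after 5 Gy and 5 at 24 h against Control at each dose. Leaving out each library gave 2 to 4 calls 12 h after 5 Gy and 3 to 4 after 20 Gy against Control.

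Among the 23 related genes, a fold limit of 2 gave 7 calls from 12 h to 24 h after 5 Gy, and against Control 1 in the 5 Gy 12 h, 7 in the 5 Gy 24 h and 8 in the 20 Gy 24 h group. Named rows alone gave 6 and 6 from 12 h to 24 h, 2 and 1 at 12 h against Control, and 4 and 6 at 24 h. The leading transcript gave 3 in the 5 Gy 12 h, 6 in the 5 Gy 24 h and 7 in the 20 Gy 24 h group. Between doses at 24 h, TPM scaling and the adjusted p alone each gave 1. Leaving out each library gave 2 to 5 at 12 h after 5 Gy and 0 to 1 between doses at 24 h.

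Sign changes follow, as log2 fold changes. Under quantile normalization, Per2 was 0.028 between doses at 24 h. Under TPM scaling, Per3 was 0.12 24 h after 5 Gy and Cry1 0.027 24 h after 20 Gy against Control, and Arntl was -0.045 and Nr1d1 -0.054 between doses at 24 h. By the leading transcript from 12 h to 24 h, after 5 Gy and 20 Gy, Dbp was -0.61 and -0.37, Per2 -0.60 and -1.35, Per3 1.85 and 1.58, and Cry2 -0.32 after 5 Gy. By it against Control, Arntl was 1.201 12 h after 5 Gy, Per1 was 1.27 and 2.14 at 12 h, Per3 was 2.99 and 2.24 at 24 h, and Per2 was -0.071 24 h after 20 Gy. By it between doses, Cry2 was 0.0026, Nr1d1 0.85 and Nr1d2 -0.083 at 12 h, and Arntl was -0.21 and Cry2 0.33 at 24 h.

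By named rows alone, from 12 h to 24 h, Cry2 was -0.32 and Per2 -0.42 after 5 Gy and Per1 -0.39 after 20 Gy. By them against Control, Nr1d1 was 1.41 and 0.72 and Per1 2.59 and 3.12 at 12 h, and Arntl was -0.21 and Per2 -0.38 24 h after 5 Gy. By them between doses, Cry2 was 0.0026 and Nr1d2 -0.043 at 12 h, and Cry2 was 0.33, Nr1d1 -0.21, Per2 1.58 and Per3 0.050 at 24 h. With a length-weighted sum, chosen after seeing the data, Dbp was -0.077 and -0.014 from 12 h to 24 h and Nr1d2 was -0.0078 between doses at 12 h. Without the second library of both 24 h groups, also chosen then, Per3 was 0.0042 24 h after 5 Gy and Cry1 0.064 24 h after 20 Gy against Control, and Per2 was 0.10 between doses at 24 h.

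Leaving out each library in turn gave -0.12 to 0.11 for Per3 24 h after 5 Gy against Control, -0.13 to 0.064 for Cry1 24 h after 20 Gy against Control and -0.18 to 0.39 for Per2 from 12 h to 24 h after 20 Gy. Between doses at 12 h it gave -0.10 to 0.17 for Nr1d2, -0.12 to 0.25 for Bhlhe40, -0.10 to 0.0046 for Cry2 and -0.28 to 0.16 for Nr1d1. Between doses at 24 h it gave -0.42 to 0.14 for Per2, -0.084 to 0.15 for Nr1d1, -0.039 to 0.12 for Arntl and -0.080 to 0.24 for Bhlhe40.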
